A study of Mus musculus with 12 samples.

Results

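DMXAA (vadimezan) was given to wild-type mouse bone marrow-derived macrophages for 24 h, and the transcriptome of 3 DMXAA libraries was set against that of 3 libraries given the vehicle, DMSO. These 6 libraries are part of a series of 12, all given the same batch label. Genes were tested where their normalized counts averaged at least 10 across these libraries, which gave 12752 of the 15788 genes listed for them. The genotype of all 6 is labelled Wild-type (WTfl/fl), a floxed genotype for which the labels name no Cre, and the other 6 libraries of the series are MGMT knockout (KO) macrophages under the same agents. The dose is written as 10 mg/ml in the deposited text, and whether the unit lost a micro sign could not be checked. Age, sex and number of mice are not given in the sources used here, nor is it said whether the libraries were made from different mice, so p-values measure only the spread between these libraries, which may be technical.

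DMXAA is a small molecule that binds the mouse STING protein, an adaptor in the membrane of the endoplasmic reticulum. STING is normally switched on by cyclic GMP-AMP, which the DNA sensor cGAS makes when it meets DNA in the cytosol. Activated STING moves to the Golgi, recruits the kinase TBK1 and lets it phosphorylate the transcription factor IRF3, which switches on interferon beta. Secreted interferon then acts through the receptor chains IFNAR1 and IFNAR2, the kinases JAK1 and TYK2, and a complex that holds STAT2 and IRF9 and binds interferon-stimulated response elements in the promoters of antiviral genes.

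The libraries held 79481708 to 93939506 reads under DMSO and 85098282 to 92531959 under DMXAA. Pearson correlations of log2 values across genes were 0.989 to 0.992 between libraries of the same group and 0.919 to 0.923 between groups. The labelled cell type was checked against its markers. All 21 macrophage markers on the list passed the filter, 6 of them called higher and 10 lower under DMXAA, beside 31.7% and 31.1% of all tested genes. Levels scaled by exon length and library depth (RPKM) under DMSO came to 8232 ± 289 for Lyz2, 1442 ± 92.6 for Cd68, 1397 ± 48.8 for Adgre1 and 404 ± 1.96 for Csf1r (SD, n = 3 libraries). Under DMXAA Lyz2 stood at 3053 ± 73.5, Cd68 at 1479 ± 72.3, Adgre1 at 959 ± 26.6 and Csf1r at 199.9 ± 1.42. Other markers were low already under DMSO, among them Mrc1 (4.04), Cx3cr1 (6.05) and Mertk (10.8). Mgmt, the DNA repair gene deleted in the other genotype, read 222, 208 and 241 normalized counts under DMSO and 120.3, 90.5 and 114 under DMXAA, so the groups did not overlap, and its log2 change was -1.04 (standard error 0.15, adjusted p = 1.9e-04).

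The response covered most of the expressed genome. At an adjusted p below 0.05, 4047 genes were higher under DMXAA (31.7% of those tested) and 3960 were lower (31.1%), together 62.8%. Changes of at least 2-fold were found in 1082 higher genes (8.48%) and 1321 lower genes (10.4%). Counts of called members of a gene list, wherever given in this report, are to be read beside these shares. The largest changes were mostly increases. At 8-fold or more 315 genes were higher and 160 lower, at 32-fold or more 114 and 17, and at 128-fold or more 31 and 4. DESeq2 on the recovered reads gave 311 and 139 at 8-fold, 131 and 22 at 32-fold, and 45 and 8 at 128-fold. The values of the 3 libraries of one group lay wholly above or below those of the other for 8771 genes (68.8%). Groups that do not overlap, as given for single genes in this report, were thus the usual outcome.

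**Figure D1:**
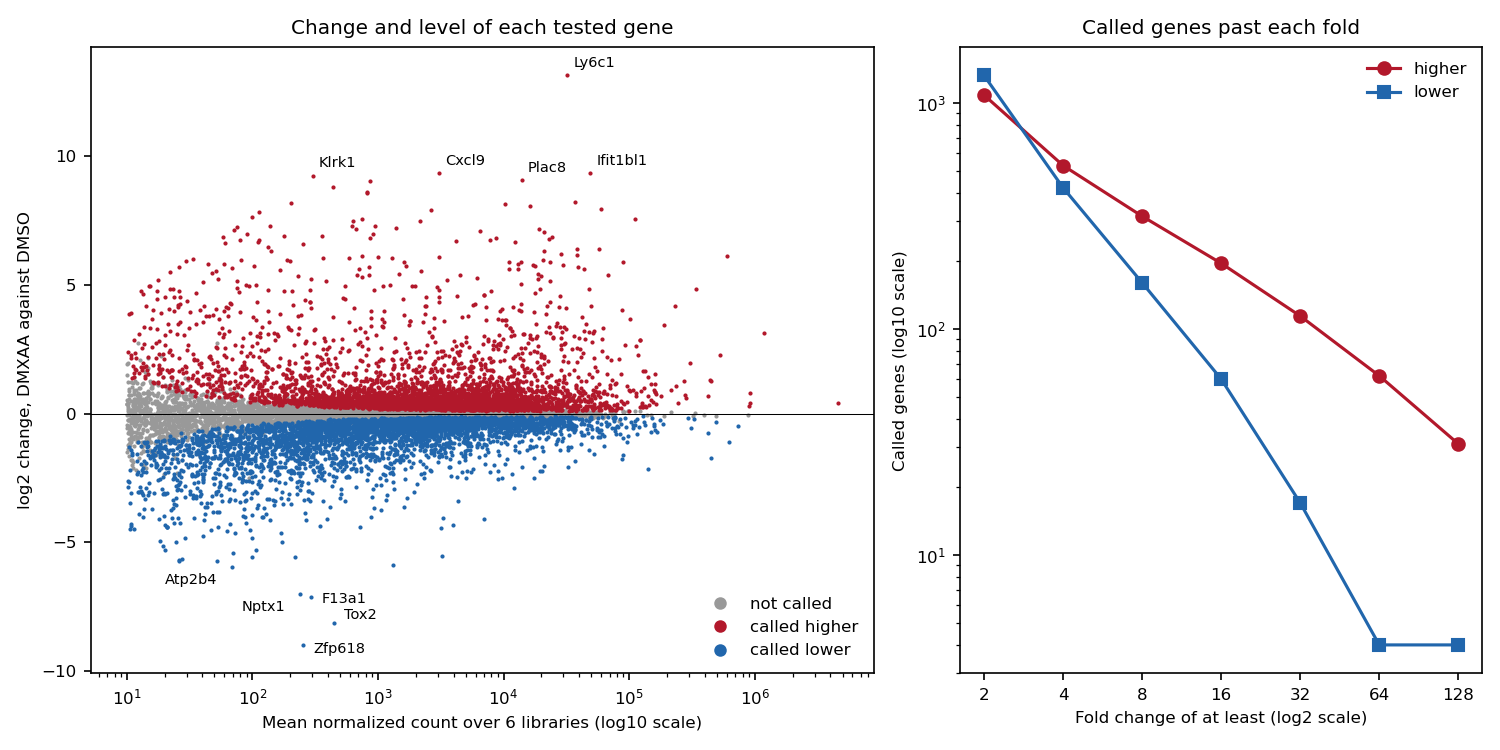
Left, log2 change under DMXAA (y axis) against the mean normalized count over 6 libraries (x axis, log10 scale) for 12752 tested genes, with genes past an adjusted p of 0.05 in colour and the 5 called genes of highest and the 5 of lowest change labelled. Right, number of called genes (y axis, log scale) past each fold (x axis): the directions are close at 2-fold (1082 higher, 1321 lower) and apart at 32-fold (114 higher, 17 lower).

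The direction of small changes depended on the scaling. As deposited, the median log2 change of all tested genes was -0.0027 and 50.5% of called genes were higher. With values rescaled so that all libraries had equal upper quartiles over the tested genes, the median was -0.13 and 37.4% of called genes were higher. With values rescaled to equal library totals, the median was -0.32 and 22.4% were higher. Changes below are on the deposited scale, as log2 of the normalized count plus 1, which understates the change of low genes, and a turn of direction under rescaling is named where it occurs.

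Reads of the DMXAA libraries lay on fewer genes. Under DMSO 391, 406 and 398 genes together held 50% of a library's reads, and under DMXAA 322, 315 and 314 did. The 152 listed genes of 7 interferon-linked families, named in the order IFIT and IFITM, OAS, single antiviral effectors, GTPases, Schlafen and PYHIN, MHC class I, and Ly6 and MS4A, held 2.17, 2.13 and 2.07% of reads under DMSO. They held 11.3, 11.3 and 11.02% under DMXAA, so the groups were far apart. These lists were chosen with earlier results of these data known, so the joint rise follows in part from that choice. The Ly6 and MS4A list alone, which also holds the gene Plac8, went from 0.436% ± 0.0185 to 4.004% ± 0.151 of reads (SD, n = 3). MHC class I presentation went from 0.985% ± 0.00838 to 3.20% ± 0.0637. Other lists held a smaller share under DMXAA: lipid handling genes went from 4.40% ± 0.115 to 2.71% ± 0.0235 and cytosolic ribosomal proteins from 3.09% ± 0.232 to 2.01% ± 0.0417.

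**Figure D2:**
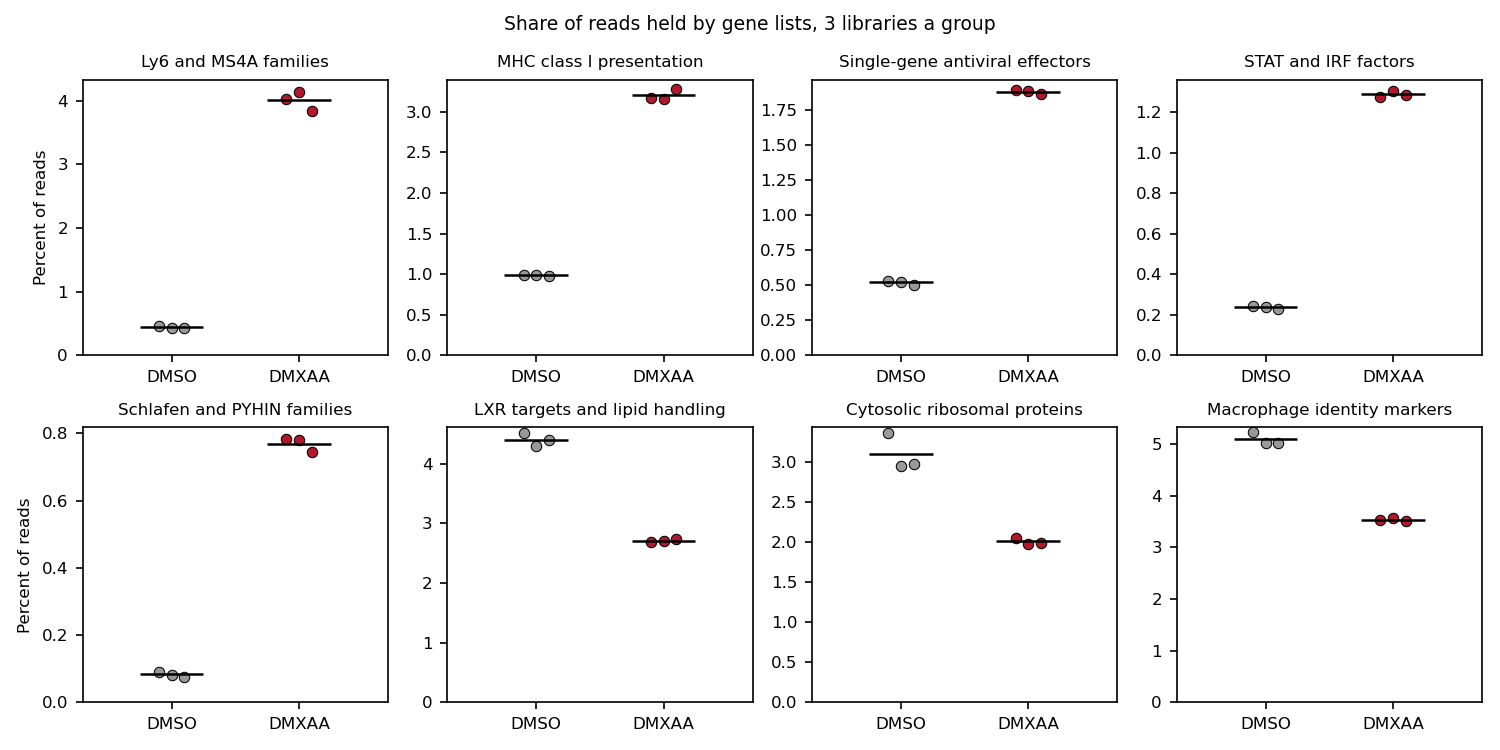
Percent of a library's reads (y axis) held by 8 gene lists (panels) in the 3 DMSO and 3 DMXAA libraries, 1 point a library, with a bar at the group mean. In every panel the points of the 2 groups do not overlap. The Ly6 and MS4A panel goes from 0.436 to 4.004% on average.

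On the per-length scale (RPKM), lysosomal genes stayed near the top and surface and antigen presentation genes joined them. Psap, the precursor of the lysosomal saposins, had the highest RPKM in both groups. Ly6a, which encodes the surface protein Sca-1, went from position 228 under DMSO (179.9 ± 20.9 RPKM) to position 2 under DMXAA (9960.2 ± 869 RPKM, SD, n = 3). Its normalized counts were 15461, 19067 and 16550.2 under DMSO and 1215065, 1249325 and 1061844 under DMXAA, a log2 change of 6.11 (standard error 0.082, adjusted p = 6.3e-12). Ly6e, an interferon-induced relative of Ly6a, went from position 31 to 4, H2-K1, a classical MHC class I heavy chain, from 32 to 8, and its light chain B2m from 21 to 9. Lyz2, the macrophage lysozyme, and Apoe, which carries lipids, had log2 changes of -1.11 and -1.72, and their positions went from 2 to 7 and from 7 to 32. Of the 100 highest genes under DMXAA, 39 had risen at least 2-fold, against 8.48% of all tested genes. A choice by DMXAA level itself favours genes that rose. Of the 100 highest under DMSO, 8 were at least 2-fold lower, against 10.4% of all tested genes. The 100 highest of both groups had 66 genes in common.

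Several of the largest increases of single genes were of genes nearly silent under DMSO. Klrk1, which encodes the receptor NKG2D, had no read in any DMSO library and 1620 reads over the DMXAA libraries, at least 677-fold higher against a floor of 3 reads over the group. Its normalized counts under DMXAA were 589, 536 and 684. Cxcl9, a T cell attractant, read 9.27, 2.54 and 22.8 under DMSO and 6191, 5627 and 6630.1 under DMXAA (9.33 on the log2 scale, standard error 0.52, adjusted p = 1.7e-07, and 8.62 without DMSO replicate 2 or 9.99 without DMSO replicate 3). Nos2, the inducible nitric oxide synthase, read 2.53, 0 and 8.91 against 1618, 1616 and 1903 (9.03, and 8.17 without DMSO replicate 2 or 9.83 without DMSO replicate 3). Each of these genes was near 0 in every DMSO library and far above it in every DMXAA library. Gbp2b, an interferon-inducible GTPase, had 1 read over the DMSO libraries and 1104 over the DMXAA libraries, a ratio of 1383 (exact 95% counting interval 248 to 54688). Bounds and counting intervals cover counting error only.

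Ly6c1 had the highest fitted change of all, 13.11 (standard error 1.09, adjusted p = 3.2e-06), and was uneven between libraries. It read 32.9, 4.24 and 0 normalized counts under DMSO and 86090.4, 90990.1 and 15748 under DMXAA, so DMXAA replicate 3 stood well below the other two. Its log2 change was 14.41 without DMSO replicate 1, 11.87 without DMSO replicate 3 and 13.94 without DMXAA replicate 3. The neighbouring gene Ly6c2, a near-identical copy between which the counting could split reads, read 179, 216 and 179 and 5711, 5975 and 5391, and both genes are uncertain for that reason. Plac8, a cysteine-rich protein of myeloid cells, read 58.1, 13.6 and 165 against 27281, 28925 and 27454 (8.13 without DMSO replicate 2, 9.89 without DMSO replicate 3, 9.06 with all). Of the 14 genes with a read under DMSO among the 15 with the highest changes, 12 had their highest DMSO value in DMSO replicate 3 and 2 in replicate 1. Of the 9 STAT and IRF genes called higher, 1 had it in DMSO replicate 3.

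Promoters of such genes are shown because the complex that holds STAT2 and IRF9, and other IRF proteins, bind a known motif there. The sequences are RefSeq promoter windows of 300 bases (250 before to 50 after the start, build GRCm38.p6, printed along the gene's strand), in which matches to the response element core (GAAA, any 2 bases, GAAA) on either strand are in capitals. This core occurs in 3.44% of all 32851 windows. Of the 15 genes with the highest changes 9 had a usable window, and 3 of these hold a core and 6 do not. Shown are the windows of the 3 genes of highest change that hold a core and of the gene of highest change that holds none.
Ifit1bl1 (chr19:34599378-34599677, minus strand): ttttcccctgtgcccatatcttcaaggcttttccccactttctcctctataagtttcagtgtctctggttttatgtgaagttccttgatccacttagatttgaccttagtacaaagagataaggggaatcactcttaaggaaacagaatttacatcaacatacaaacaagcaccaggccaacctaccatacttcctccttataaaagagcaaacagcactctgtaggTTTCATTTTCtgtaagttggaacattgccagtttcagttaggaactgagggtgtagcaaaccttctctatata
Apol9a (chr15:77410985-77411284, minus strand): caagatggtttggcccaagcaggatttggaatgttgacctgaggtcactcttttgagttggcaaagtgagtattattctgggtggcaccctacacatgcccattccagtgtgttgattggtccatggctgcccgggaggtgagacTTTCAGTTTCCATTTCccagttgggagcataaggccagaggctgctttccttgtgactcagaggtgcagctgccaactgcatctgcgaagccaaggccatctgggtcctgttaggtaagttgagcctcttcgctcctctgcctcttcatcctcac
Gbp2b (chr3:142594597-142594896, plus strand): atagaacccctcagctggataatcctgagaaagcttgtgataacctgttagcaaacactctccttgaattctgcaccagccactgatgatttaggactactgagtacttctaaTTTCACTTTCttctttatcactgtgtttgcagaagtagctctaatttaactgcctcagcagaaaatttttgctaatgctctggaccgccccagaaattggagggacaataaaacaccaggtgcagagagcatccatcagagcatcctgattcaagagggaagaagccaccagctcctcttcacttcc
Ly6c1 (chr15:75048614-75048913, minus strand): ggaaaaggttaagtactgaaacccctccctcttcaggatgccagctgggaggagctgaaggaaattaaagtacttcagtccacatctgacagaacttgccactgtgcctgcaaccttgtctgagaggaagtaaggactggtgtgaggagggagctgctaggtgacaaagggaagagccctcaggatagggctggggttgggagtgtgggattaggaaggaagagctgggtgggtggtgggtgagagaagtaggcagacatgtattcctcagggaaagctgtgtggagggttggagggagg

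The core of Ifit1bl1 begins 23 bases before the start, that of Gbp2b 137 bases before it, and Apol9a holds 2 overlapping cores that begin 105 and 99 bases before it. A match is a description of the letters and not a measured binding site, and no match in the Ly6c1 window says only that these letters are not in it. Motif shares by size of response are void here, since a window was matched for too few genes, 75 of the 114 at least 32-fold higher. Ifit1bl1, a gene of the IFIT family, read 89.3, 86.5 and 444 under DMSO and 97411, 99656 and 94516 under DMXAA (9.32 on the log2 scale, and 10.09 without DMSO replicate 3). Apol9a, an apolipoprotein L gene, read 0, 6.79 and 9.90 against 1629, 1759 and 1551 (8.55, and 7.48 without DMSO replicate 1 or 9.20 without DMSO replicate 3).

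The signalling genes of the STING pathway mostly changed by less than 2-fold. Of 24 tested 14 were higher and 5 lower, beside 31.7% and 31.1% of all tested genes, and 5 of these changes were at least 2-fold. The list's median log2 change of 0.23 turned to -0.088 at equal library totals. The sensor gene Cgas read 676, 624 and 641 under DMSO and 1275, 1173 and 1165 under DMXAA (0.90, adjusted p = 3.6e-06), and Sting1 read 5347, 5448 and 5627 against 9785, 9258 and 9505 (0.80, adjusted p = 2.7e-07). Both genes were higher in every DMXAA library. The kinase gene Tbk1 was at 0.31, or -0.0059 at equal library totals, and its relative Ikbke, which encodes a second kinase of IRF3, fell by 0.50. Irf3 did not pass the test (0.14, adjusted p = 0.074, and -0.18 at equal library totals), nor did Mavs (-0.032), the adaptor of the RNA sensors.

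The largest changes within that list were of enzymes that degrade DNA, its building blocks or cyclic dinucleotides. Trex1, the exonuclease that degrades cytosolic DNA, read 2066, 1956 and 1624 under DMSO and 12982, 12982 and 13355 under DMXAA (2.81, standard error 0.082, adjusted p = 1.2e-09). Samhd1, which hydrolyses the building blocks of DNA, read 39302, 41696 and 39926 against 191329, 196554 and 191207 (2.26). Enpp1, the surface enzyme that hydrolyses extracellular cyclic GMP-AMP, went the other way, from 1908, 1780.3 and 1793 to 361, 364 and 343 (-2.36, standard error 0.074, adjusted p = 2.0e-09). In all 3 genes the libraries of the groups were far apart. Slc19a1, a transporter reported to import cyclic dinucleotides, fell by 0.71, and Azi2 and Tank, which encode adaptors of TBK1, rose by 1.37 and 0.85.

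The interferon genes were nearly unread at 24 h. Of 21 interferon ligand genes 3 were listed and none reached the mean of 10 needed for a test. Ifnb1, interferon beta, had 0, 1 and 0 reads in the DMSO libraries and 9, 18 and 11 in the DMXAA libraries, or 0.104, 0.195 and 0.129 when scaled to library depth (RPM). Ifna4 had no read under DMSO and 3, 4 and 0 under DMXAA, and Ifnz had 2, 4 and 1 against 3, 0 and 0. A floor of 3 reads corresponds to 0.0319 to 0.0377 RPM in these libraries. The other ligand genes on the list are not analysed here.

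The receptors and kinases of interferon signalling changed in both directions, with 5 of 9 tested genes higher and 2 lower. Over all tested genes the shares were 31.7% and 31.1%. Jak2 read 3785, 4042 and 3879.7 under DMSO and 9179, 8851 and 9146 under DMXAA (1.22), and Tyk2, the kinase bound to IFNAR1, read 7809, 7814 and 7427 against 15438, 15636 and 15634 (1.02). Both kinase genes were higher in every DMXAA library than in any DMSO library. Ifnar1, the signalling chain of the receptor for type I interferon, fell from 5290.1, 5753 and 5645 to 4274, 4251 and 4095 (-0.40, adjusted p = 9.4e-05), and Ifngr1, the ligand-binding chain for interferon gamma, from 7067, 7674 and 7465 to 4279, 4515 and 3995 (-0.80, adjusted p = 1.6e-06). Jak1 did not pass the test (-0.039). Ifnar2 was called at 0.17, but not without DMXAA replicate 3 (adjusted p = 0.098), DMSO replicate 2 (0.082) or DMSO replicate 3 (0.072), and at equal library totals it was called lower, at -0.15. The list's median of 0.17 also turned to -0.15 at equal library totals.

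Of the transcription factors that carry the interferon signal, 9 of 15 tested STAT and IRF genes were higher and 3 lower, with a median of 0.68. Irf7, which amplifies interferon production, read 25901, 23199.7 and 19779 under DMSO and 646579, 668593 and 651794 under DMXAA (4.84, standard error 0.082, adjusted p = 2.7e-11). Stat2 read 4516, 4373 and 4073 against 49335, 49453 and 48295 (3.51). In both genes the 3 DMXAA libraries lay close together and far above every DMSO library. Irf9, the DNA-binding partner of STAT2, rose less (1.10). Irf1, a factor induced by interferon gamma and type I interferon, rose by 2.17, Stat3, the main factor downstream of interleukin 6 and 10 receptors, by 1.25, and Irf2 and Irf5 by 0.96 and 0.68.

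The 3 members that fell were Irf8, Irf4 and Stat4. Irf8, which directs monocyte and dendritic cell development, fell from 17196, 16775 and 17236 to 11475, 11475 and 11634 (-0.57, adjusted p = 1.1e-06). Irf4, which supports alternative activation, read 96.05, 86.5 and 99 against 38.2, 25.5 and 69.3 (-1.18, adjusted p = 0.0095). Stat4, the factor downstream of the interleukin 12 receptor, fell from 574, 505 and 512 to 65.2, 44.7 and 42.8 (-3.38, standard error 0.18, adjusted p = 9.8e-08). The groups did not overlap in any of these 3 genes, as for 68.8% of all tested genes, though the DMXAA libraries of Irf4 were uneven. Stat5a, a factor downstream of growth factor receptors, did not pass the test (-0.11).

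**Figure D3:**
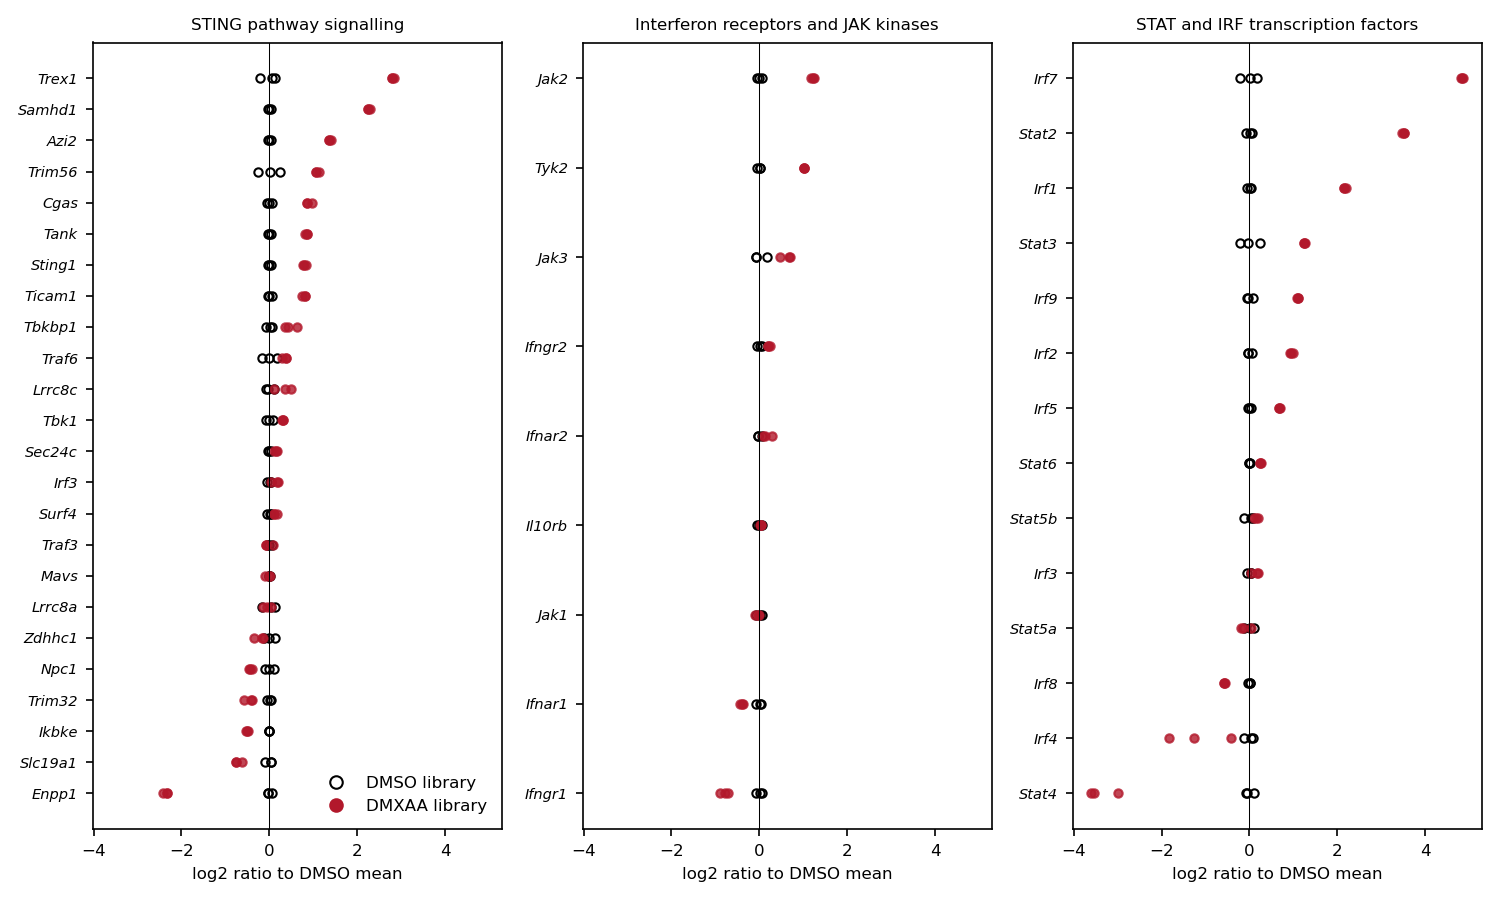
Log2 ratio of each library's normalized count plus 1 to the mean of the 3 DMSO libraries (x axis) for tested members of 3 lists (y axis): STING signalling, interferon receptors and kinases, and STAT and IRF factors. Open points are DMSO libraries and filled points DMXAA libraries. Irf7 and Stat2 lie farthest to the right, and Stat4 and Enpp1 farthest to the left.

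Nearly every tested gene of the antiviral effector families was called higher. All 10 tested IFIT and IFITM genes were called higher (median 5.65), against 31.7% of all tested genes. Ifit1, which binds viral RNA that lacks a host cap, read 508, 424 and 429.6 under DMSO and 22228, 22013 and 21279 under DMXAA (5.59, standard error 0.074, adjusted p = 6.1e-12). Ifit2 and Ifit3 stood at 5.89 and 5.70. The membrane proteins of this list moved less: Ifitm3, which blocks viral fusion, was at 2.50 and Ifitm1 at 0.69. Ifitm2 was called at 0.22, stood at -0.097 at equal library totals, and lost its call without DMSO replicate 1, DMSO replicate 3, DMXAA replicate 1 or DMXAA replicate 2 (adjusted p = 0.084, 0.099, 0.06 and 0.093).

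The OAS family, enzymes that sense double-stranded RNA, had 9 of 10 tested genes higher (median 2.94). Oasl1, a catalytically inactive member, read 1218, 903 and 1051 under DMSO and 73358, 78853 and 73892 under DMXAA (6.16, standard error 0.093, adjusted p = 1.3e-11), and Oas3 read 6099, 5970.4 and 5759 against 55635, 57958 and 58591 (3.27). Oas1a, Oas1b, Oas1c and Oas1g are close copies in a single locus and their separate values (2.95, 3.56, 1.56 and 3.37) are uncertain.

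Of 43 single antiviral effectors 42 were higher and 1 lower (median 2.74). Isg15, a ubiquitin-like modifier, read 733, 612 and 625 under DMSO and 34738, 34033 and 35853 under DMXAA (5.73), and Bst2, the tetherin that holds budding virions at the membrane, read 6005, 5862 and 5422 against 76477, 80163 and 77597 (3.76). Isg20, an exonuclease, and Cmpk2, a mitochondrial nucleotide kinase, rose by 7.04 and 6.19. Serpina3g, a protease inhibitor, was at 7.28 and Herc6, the ligase that attaches ISG15 in the mouse, at 3.99. Ifi27, by name an interferon-inducible gene, went against the list: it read 22705, 20609 and 20771 under DMSO and 2963, 3498 and 2378 under DMXAA (-2.87, standard error 0.12, adjusted p = 1.3e-08). Apobec1, an RNA editing enzyme, was called at 0.24 but stood at -0.073 at equal library totals.

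All 21 guanylate-binding proteins and immunity-related GTPases, which attack the vacuoles of intracellular pathogens, were higher and changed at least 2-fold (median 5.60), against 8.48% of all tested genes. Gbp3 read 1756, 1752 and 1806 under DMSO and 85723, 86764 and 84891 under DMXAA (5.60, standard error 0.042), with the smallest p of the list (6.0e-13 adjusted). Iigp1 read 60.7, 53.4 and 117 against 21324, 21904 and 18719.7 (8.13), and Gbp4 read 79.2, 80.6 and 277 against 34628, 32271 and 30305 (8.05, and 8.64 without DMSO replicate 3). Irgm2, a regulatory member that guards host membranes, was at 3.63. The least changed were the paralogs 9930111J21Rik1 (2.29) and 9930111J21Rik2 (2.11), copies between which reads can be split.

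All 20 tested Schlafen and PYHIN genes also rose at least 2-fold (median 3.39). Schlafen proteins restrict growth and viral translation, and Slfn4 read 175, 199 and 435 under DMSO and 78198, 73018 and 70073 under DMXAA (8.21, standard error 0.27, adjusted p = 2.8e-09). Slfn1 was at 7.08 and Slfn8 at 2.93. PYHIN proteins bind DNA, and Ifi206, Ifi213 and Ifi205 were at 5.76, 5.40 and 4.84, again as close copies of each other. Aim2, the PYHIN member that builds an inflammasome, changed least, from 947, 852 and 929 to 3034, 2964 and 2789 (1.69).

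Sensors of nucleic acid in the cytosol rose in 15 and fell in 4 of 20 genes (median 1.32). Zbp1, the sensor of left-handed nucleic acid, read 1106, 930.5 and 960.3 under DMSO and 37289.8, 37179 and 36174 under DMXAA (5.21, standard error 0.067, adjusted p = 6.0e-12). The RNA helicase genes Ddx58, Ifih1 and Dhx58, which encode RIG-I, MDA5 and LGP2, stood at 3.22, 3.07 and 3.07, and Eif2ak2, the kinase PKR, at 1.91. Nlrp3, the sensor of an inflammasome, fell from 5718, 6426 and 5909 to 3957, 4094 and 4184 (-0.56, adjusted p = 1.6e-05), and Zcchc3, a cofactor of cGAS and of the helicases, read 73.3, 60.2 and 74.2 against 41.6, 35.1 and 25.4 (-1.02).

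**Figure D4:**
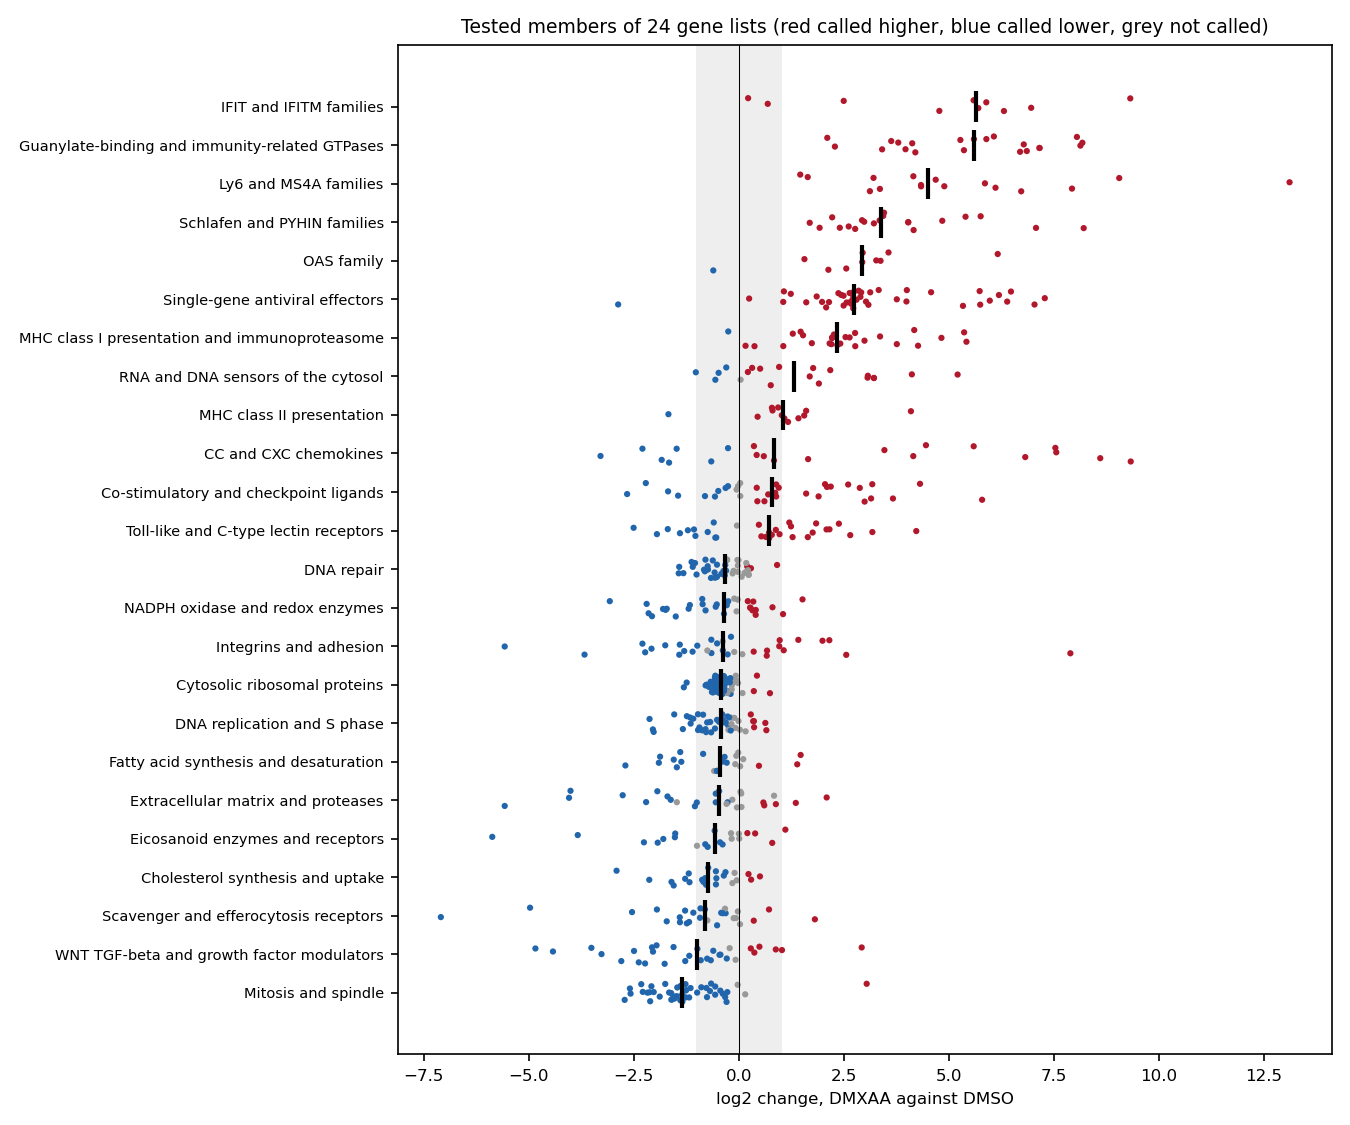
Log2 change under DMXAA (x axis) of every tested member of 24 gene lists (y axis), 1 point a gene, with a bar at each list's median; the 24 are the 12 highest and 12 lowest medians among the lists whose medians the text gives. The GTPases, IFIT and IFITM, Ly6 and MS4A, and Schlafen and PYHIN lists have all their members right of 0, and mitosis has 1 called member there, Tpx2. The grey band marks changes under 2-fold.

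Inhibitors of cytokine signalling were higher in 16 and lower in 16 of 40 genes, or 12 and 23 at equal library totals. The shares over all tested genes were 31.7% higher and 31.1% lower. Of those that act on interferon signalling, Usp18, which displaces JAK1 from IFNAR2 and removes ISG15, read 1609, 1204 and 1180.0 under DMSO and 45132, 45815 and 46886 under DMXAA (5.12, standard error 0.10, adjusted p = 7.5e-11). Socs1, which blocks the JAK kinases, read 32.02, 28.8 and 31.7 against 414, 398 and 495 (3.77). Peli1, a ubiquitin ligase, and Trim30a were at 2.14 and 2.68. Of the MAP kinase phosphatases, Dusp4 read 569, 546 and 576 against 152, 131 and 141 (-1.99, adjusted p = 1.2e-07), and Dusp6, which is specific for ERK, read 419, 444 and 413 against 128, 126 and 120.2 (-1.76).

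Chemokine genes changed in both directions. Of 21 tested 14 were higher and 7 lower (median 0.84), beside 31.7% and 31.1% of all tested genes. Ligands of CXCR3, a receptor of T and NK cells, were among the highest, with Cxcl10 at 155, 120.4 and 189 under DMSO and 16591, 18122 and 17248 under DMXAA (6.82), and Cxcl11 at 3.37, 0 and 15.8 against 1466, 1704 and 1737 (8.61, and 7.57 without DMSO replicate 2 or 9.61 without DMSO replicate 3). Ccl5, an attractant of T cells and monocytes, read 959, 1025 and 1643 against 205631, 219797 and 239942 (7.56, standard error 0.17, adjusted p = 1.5e-10). The monocyte attractants Ccl2 and Ccl12 were at 4.15 and 7.54, and Ccl4 at 1.65. Cxcl3, a neutrophil attractant, was low and uneven at 16.9, 101 and 17.8 against 4.50, 14.9 and 2.31. Its change of -2.30 lost its call without DMSO replicate 2 (-1.47, adjusted p = 0.12), DMXAA replicate 1 (-2.16, adjusted p = 0.062) or DMXAA replicate 3 (-1.80, adjusted p = 0.084), and was -2.93 without DMXAA replicate 2. Pf4, or platelet factor 4, fell by 0.66.

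Chemoattractant receptors rose in 13 and fell in 7 of 24 tested genes (median 0.55), beside 31.7% and 31.1% of all tested genes. P2ry14, the receptor for UDP-glucose, read 2276, 2089.9 and 2078 under DMSO and 32229.8, 34125 and 33005 under DMXAA (3.95, standard error 0.053, adjusted p = 6.1e-12). Fpr2, a formyl peptide receptor, was at 2.75, the chemerin-binding Ccrl2 at 2.52 and Ccr2, the receptor that draws monocytes out of the marrow, at 1.52. Cx3cr1, the fractalkine receptor of resident macrophages, fell from 2022, 2191 and 2212 to 261, 227 and 225 (-3.17, adjusted p = 8.1e-10), S1pr1, a sphingosine phosphate receptor, by 2.38 and C5ar1, the receptor for complement C5a, by 1.46.

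Of 33 tested cytokine genes 14 were higher and 9 lower, beside 31.7% and 31.1% of all tested genes, or 14 and 14 at equal library totals. Tnfsf10, the death ligand TRAIL, read 34.5, 23.7 and 27.7 under DMSO and 1945, 2016 and 1968 under DMXAA (6.07, adjusted p = 2.2e-10). Of the antagonists among them, Il18bp, which traps interleukin 18, read 2384, 2115 and 2471 against 53493, 52456 and 57099.7 (4.55), and Il1rn, the interleukin 1 receptor antagonist, was at 4.07. Il15 rose by 2.78 and Il10 by 2.17. Among growth factors, Igf1 read 130989, 136620.3 and 136833 against 39922, 39224 and 39677 (-1.77, standard error 0.039, adjusted p = 1.3e-10) and Pdgfa read 789, 755 and 823 against 117, 158 and 158 (-2.46).

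Cytokine receptors rose in 23 and fell in 9 of 43 genes, and the median of 0.25 turned to -0.063 at equal library totals. The highest of the list, Il12rb1, a chain of the interleukin 12 receptor, read 23.6, 32.2 and 40.6 under DMSO and 1369, 1466 and 1179 under DMXAA (5.36), the common chain Il2rg was at 3.11, Il15ra at 2.81 and Il21r at 2.38. Axl, a receptor kinase that binds dying cells through its ligand GAS6, read 23410.1, 23006 and 24657 against 81459, 84782 and 83005 (1.81), whereas Gas6 itself read 15809, 14643 and 15573 against 2658, 2413 and 2836 (-2.54, standard error 0.066, adjusted p = 4.4e-10). The receptor gene was thus higher, and its ligand lower, in every DMXAA library than in any DMSO library. Igf1r fell by 2.26.

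Antigen presentation on MHC class I rose in 26 of 27 genes (median 2.35), with 24 at least 2-fold higher. H2-T22, a nonclassical heavy chain, read 25532, 24536 and 23162 under DMSO and 427686, 453153 and 442268 under DMXAA (4.18, standard error 0.047, adjusted p = 3.1e-12). Tap1, a subunit of the peptide transporter, was at 2.99, and Nlrc5, the transactivator of class I genes, at 2.22. H2-Q6 and H2-Q7, near-identical genes whose reads can be split, were at 5.36 and 4.82. Canx, the chaperone calnexin, fell by 0.25. The constitutive subunits of the proteasome rose in 29 of 31 genes but by little, with a median of 0.47 (0.15 at equal library totals, when 16 were higher and 3 lower). Psma5 was the single subunit that changed at least 2-fold (1.08), and Psmd1 fell by 0.19.

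On MHC class II, 11 of 12 tested genes were higher and H2-Ob was lower (median 1.05). H2-Ab1 read 1302, 1293 and 1288 under DMSO and 3809, 3919 and 4077 under DMXAA (1.60, adjusted p = 4.6e-09), and Marchf1, a ubiquitin ligase that removes class II and CD86 from the surface, was at 1.17. H2-Ob, a chain of the inhibitor of peptide loading, read 35.4, 33.1 and 22.8 against 17.99, 7.45 and 4.62 (-1.68, adjusted p = 0.014, and 0.052 without DMSO replicate 1). Co-stimulatory and checkpoint genes rose in 21 and fell in 9 of 34 (median 0.78). Slamf9, a receptor of the SLAM family, read 479, 467 and 444 against 25902, 26394 and 24946 (5.79, standard error 0.055, adjusted p = 2.1e-12). Cd47, the signal against phagocytosis, was at 2.10 and Siglec1, the sialoadhesin, at 3.15. Cd276, a checkpoint ligand of the B7 family, fell from 135, 155 and 139 to 24.7, 17.03 and 24.3 (-2.66).

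Toll-like and C-type lectin receptors rose in 20 and fell in 11 of 32 tested genes (median 0.72). Tlr9, which senses DNA in endosomes, read 431, 543 and 557 under DMSO and 4383, 4525 and 4908 under DMXAA (3.18, standard error 0.10, adjusted p = 2.1e-09). Cd180 and its partner Ly86 were at 2.16 and 1.84. Mrc1, the mannose receptor, fell from 1731, 2266 and 2062 to 574, 470.5 and 515 (-1.95). NF-kappaB subunits and kinases moved little, with 8 of 23 higher and 6 lower, near the shares of all tested genes (31.7% and 31.1%). Their median of 0.031 turned to -0.094 at equal upper quartiles and to -0.29 at equal totals. Myd88, the adaptor of most Toll-like receptors, rose by 1.32 and Nfkb1 fell by 0.39.

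Fc receptor and complement genes rose in 14 and fell in 11 of 27 tested genes, beside 31.7% and 31.1% of all tested genes. At least 2-fold higher were 11 and at least 2-fold lower 8, beside 8.48% and 10.4% of all tested genes. At equal library totals 13 were called in each direction. Cfb, factor B of the alternative pathway, read 1203, 1257 and 1574 under DMSO and 115174, 117496 and 106248 under DMXAA (6.40, standard error 0.092, adjusted p = 9.5e-12), C3, its central component, read 14832, 14923 and 15389.9 against 190117, 189644 and 188010.1 (3.65), and C4b read 19.4, 8.48 and 16.8 against 1825, 1557 and 1743 (6.82). All 3 of these genes were thus higher in every DMXAA library than in any DMSO library. Among Fc receptors, Fcgr1 and Fcgr4, which bind IgG and activate, were at 3.31 and 3.33. Fcgr3, another activating receptor, fell from 55343, 51672 and 49478 to 12820.4, 11929.6 and 12692 (-2.06), and the receptor-like Fcrls by 3.34.

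Of 25 genes of arginine, tryptophan, itaconate, NAD and pterin metabolism 16 were higher and 3 lower (median 0.71). Ass1, which remakes arginine from citrulline, read 463, 627 and 582 under DMSO and 12759.7, 13591 and 13962 under DMXAA (4.60, adjusted p = 1.5e-10), and Acod1, which makes itaconate, 518, 643 and 559 against 15261, 15169 and 15268 (4.73). Asl, the next enzyme after ASS1, did not follow: it was at -0.20, with an adjusted p of 0.029 that was 0.08 without DMSO replicate 1, 0.079 without DMSO replicate 3, 0.053 without DMXAA replicate 1 and 0.099 without DMXAA replicate 3. Arg1, the competing arginase, was low in both groups and did not pass the test (10.1, 32.2 and 17.8 against 2.25, 10.6 and 8.09, -1.45). Pnp, a purine phosphorylase, rose by 2.89 and Bst1, which hydrolyses NAD, by 2.06.

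Of 31 redox genes 10 were higher and 18 lower (median -0.35), beside 31.7% and 31.1% of all tested genes. Prdx5 and Txn1, a peroxiredoxin and thioredoxin, rose by 1.52 and 1.05. The metallothioneins fell, Mt1 from 4556, 4014 and 4159 to 856, 928 and 994 (-2.20, standard error 0.076, adjusted p = 4.4e-09) and Mt2 from 579, 497 and 505 to 37.1, 90.5 and 69.3 (-3.07). Cat, or catalase, fell by 1.50, and Slc7a11, the cystine importer, from 80.9, 112 and 90.1 to 23.6, 15.97 and 46.2 (-1.81). Among genes of cell death, 22 of 36 tested were higher and 5 lower (median 0.66). Casp1 and Gsdmd, which carry out pyroptosis, were at 1.80 and 1.36, Bak1, a pore former of mitochondrial apoptosis, at 1.61, and Casp12 at 4.15. Bcl2, which holds that pore shut, fell from 163, 165 and 160.4 to 30.4, 39.4 and 33.5 (-2.21), and Ninj1, which ruptures the membrane of dying cells, fell by 1.10.

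Among better-read genes (those averaging 100 or more normalized counts, with groups apart), the deepest decreases were of genes of diverse function. Zfp618, a zinc finger gene, read 426, 617 and 479 under DMSO and had no read in any DMXAA library, at least 457-fold lower against a floor of 3 reads over the group. Tox2, a nuclear factor of the HMG box family, read 859, 835 and 940.5 against 30.4, 0 and 0 (-8.12, and -9.78, -7.29 and -7.29 without DMXAA replicate 1, 2 and 3). Nptx1, a pentraxin, read 545, 522 and 370.2 against 1.12, 1.06 and 10.4 (-7.01, and -7.82 without DMXAA replicate 3). These genes were close to silent under DMXAA in most libraries. F13a1, a transglutaminase that crosslinks fibrin, read 543, 665 and 534 against 4.50, 12.8 and 0 (-7.10, and -7.95 without DMXAA replicate 2 or -6.06 without DMXAA replicate 3). Ndrg2 read 6000.4, 4789 and 8219 against 173, 171 and 80.9 (-5.52), and Sort1, the sorting receptor sortilin, 7138, 7487 and 8155 against 386, 309.7 and 436 (-4.34, standard error 0.11, adjusted p = 5.2e-10). Igfbp4, which binds insulin-like growth factors, fell from 5830.2, 6115 and 6310.0 to 252, 268 and 332 (-4.43) and Bmp2 from 204, 192 and 188 to 7.87, 5.32 and 4.62 (-4.84).

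Genes of the cell cycle were mostly lower. Of 46 mitosis and spindle genes 43 were lower and 1 higher (median -1.35), 30 of them at least 2-fold lower against 10.4% of all tested genes. Of 44 replication and S phase genes 30 were lower and 6 higher (median -0.43). Myc, the growth regulator, read 1602, 1542 and 982 under DMSO and 67.5, 55.3 and 64.7 under DMXAA (-4.41, standard error 0.18, adjusted p = 1.7e-08). Top2a, the topoisomerase of dividing cells, and Cenpa, the centromere histone, fell (log2 changes -1.66 and -1.88), and Rrm2, a ribonucleotide reductase subunit, from 1191, 1051 and 872 to 257, 220.3 and 229 (-2.13). Tpx2, a spindle assembly factor, was the exception: it read 3585, 3623 and 3345 against 28098, 30545 and 28390.4 (3.04, standard error 0.053, adjusted p = 3.2e-11). Of 40 cyclins, CDK inhibitors and p53 targets 16 were higher and 13 lower (12 and 22 at equal library totals), beside 31.7% and 31.1% of all tested genes. Ccnd2, or cyclin D2, was at 2.51, Mxd1, a MAX-binding antagonist of MYC, at 2.02, and Sesn1, a p53 target, at -2.27. DNA repair genes were lower in 24 and higher in 3 of 42 (median -0.33), with Ung, the uracil glycosylase, at -1.42 and Fanca at 0.91.

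Lipid genes were more often lower than higher. Cholesterol synthesis and uptake genes were lower in 17 and higher in 3 of 23 tested (median -0.73), and 0 were higher and 20 lower at equal library totals. Sqle, the squalene epoxidase of cholesterol synthesis, read 1306, 1322 and 1123 under DMSO and 393, 392 and 446 under DMXAA (-1.60, standard error 0.095, adjusted p = 2.6e-07). Among fatty acid genes 13 of 22 tested were lower and 3 higher (median -0.45). Fads2, a desaturase, read 494, 501 and 454 against 64.1, 81.96 and 75.1 (-2.70), Fasn, fatty acid synthase, was at -1.37, and Acsl1, which activates long chains, rose by 1.47. Of lipid handling genes 14 were lower and 8 higher of 28 tested: Lpl and Cd36, the lipase and scavenger receptor of foam cells, fell (log2 changes -1.62 and -1.08), while the exporter Abcg1 and the lysosomal carrier Npc2 rose by 1.61 and 1.41. Ch25h, which makes 25-hydroxycholesterol, was low but rose from 8.43, 9.33 and 10.9 to 97.8, 105 and 111 (3.33).

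Eicosanoid genes were lower in 12 and higher in 4 of 21 tested (median -0.58). Hpgd, the prostaglandin-degrading enzyme, fell by 5.87, and Ptgs1, the constitutive cyclooxygenase, from 2009, 2241 and 2138 to 456, 442 and 432 (-2.26, adjusted p = 2.5e-09). Alox5, the lipoxygenase that starts leukotriene synthesis, read 92.7, 84.8 and 128 against 8.99, 5.32 and 4.62 (-3.84). Ptges, the inducible synthase of prostaglandin E, was the one member at least 2-fold higher (1.11). The list of scavenger and efferocytosis receptors, which also holds proteins that are not receptors, such as Gas6 and F13a1, was lower in 18 and higher in 3 of 27 tested (median -0.81). Cd163, the haemoglobin scavenger receptor, read 291, 373 and 337 against 11.2, 8.52 and 9.25 (-4.97), Stab1 and Itgb5, which help take up dying cells, fell (log2 changes -1.28 and -1.41), and Msr1, scavenger receptor A, rose by 0.72.

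Lysosomal genes held a close to equal share of reads in both groups, 10.7% ± 0.196 under DMSO and 10.8% ± 0.136 under DMXAA (SD, n = 3), while single members shifted. Of 45 members 24 were higher and 13 lower, beside 31.7% and 31.1% of all tested genes. The list's median of 0.18 turned to -0.14 at equal library totals. Ctsc and Ctsk, cathepsins C and K, rose by 1.77 and 1.76, and Atp6v0d2, a proton pump subunit of osteoclasts and macrophages, fell from 3571, 3494 and 3767 to 849.9, 897 and 1025 (-1.97). Dcstamp, a fusion gene of osteoclasts and giant cells, fell from 609, 485 and 421 to 56.2, 46.8 and 86.7 (-3.01, standard error 0.23, adjusted p = 1.6e-06).

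Transcription factor genes fell more often than they rose, 42 lower and 30 higher of 95 tested (median -0.17), against 31.1% and 31.7% of all tested genes. Batf2, an interferon-induced bZIP factor, read 209, 205 and 164 under DMSO and 1995, 1907 and 2095 under DMXAA (3.37, adjusted p = 2.1e-09), and Zeb1 and Creb5 were at 2.24 and 1.89. Of the genes that fell, Nr4a1, a nuclear receptor, read 735, 828 and 739 against 61.8, 55.3 and 67.03 (-3.62, standard error 0.12, adjusted p = 4.0e-09), and Egr2 and Egr3 were at -2.59 and -3.95. Epas1, which encodes HIF-2 alpha, and Ets1 fell (log2 changes -3.06 and -2.57). Chromatin regulators rose in 33 and fell in 19 of 62 tested, beside 31.7% and 31.1% of all tested genes. Their median of 0.22 turned to -0.099 at equal library totals. Sp140, a reader of histone marks, read 3022, 3116 and 2855 against 33641, 32215 and 34509.7 (3.48), and Setdb2, a histone methyltransferase, was at 2.70. Hdac9, a class II deacetylase, fell by 2.12.

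Clock genes were lower in 10 and higher in 3 of 19 tested (median -0.30). Npas2, a partner of BMAL1, read 84.3, 102 and 102 under DMSO and 16.9, 13.8 and 8.09 under DMXAA (-2.85, adjusted p = 2.3e-05), Nr1d1, which encodes REV-ERB alpha, was at -1.44 and Dbp, an output factor, at -1.01, and Cry1 rose by 0.63. All libraries were taken at a single time, so no rhythm was measured.

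Of 37 tested genes of the integrated stress and unfolded protein responses 17 were higher and 12 lower, beside 31.7% and 31.1% of all tested genes. The list's median of 0.11 turned to -0.020 at equal upper quartiles and to -0.21 at equal totals. Atf4, the main factor of the integrated stress response, rose, at 6642, 5902 and 5944 under DMSO and 18919, 18048 and 17183 under DMXAA (1.55). Ddit3, Trib3 and Nupr1 of this list were at 2.28, 2.75 and 2.95, and its members ran from -2.69 to 2.95. Of 22 heat shock chaperones 7 were higher and 7 lower, near the shares of all tested genes (31.7% and 31.1%), and the median of 0.052 turned to -0.074 at equal upper quartiles and to -0.27 at equal totals. Dnaja1, a co-chaperone of HSP70, rose by 0.88 and Dnajb4, another, fell by 1.05. Cytosolic ribosomal protein genes were lower in 66 and higher in 3 of 78 (median -0.41), with Rpl3 and Rpl10a, large subunit proteins, at -1.31 and -1.24, and Rps24, a small subunit protein, at 138340.0, 106197 and 121338 against 215461, 192214 and 200925 (0.74). Glycolysis genes were lower in 16 and higher in 7 of 33. The sugar transporter Slc2a6 was at 1.92, the hexokinase Hk3 at 1.64 and Pfkfb3, which makes an activator of glycolysis, at 1.56, while Aldoc, an aldolase, and Eno2, an enolase, fell (log2 changes -2.51 and -1.67). Of 54 genes of oxidative phosphorylation and the citrate cycle 26 were higher and 9 lower (median 0.15), but 7 higher and 27 lower at equal library totals (median -0.17). Cycs, or cytochrome c, was at 2709, 2495 and 2442 against 7423, 7687 and 6947 (1.53), Ndufs3, a subunit of complex I, rose by 0.75, and Idh2, an isocitrate dehydrogenase, fell by 1.21. Mitochondrially encoded transcripts are not analysed here.

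All 16 tested genes of the list of Ly6 and MS4A surface families, which also holds Plac8, rose, each at least 2-fold (median 4.51). Ms4a4c, a tetraspan membrane protein, read 356, 446 and 732 under DMSO and 119216, 127481 and 112235 under DMXAA (7.93, standard error 0.20, adjusted p = 4.4e-10), and Ms4a6b and Ms4a7 were at 4.34 and 1.64. Integrin and adhesion genes fell in 17 and rose in 11 of 32 tested (median -0.38), beside 31.1% and 31.7% of all tested genes. Itgb7, an integrin of gut homing, rose by 2.15, and the tetraspanins Cd9 and Cd81 fell (log2 changes -2.23 and -2.30). Fn1, or fibronectin, read 293, 567 and 402 against 23.6, 0 and 24.3 (-5.58, and -6.34, -4.03 and -6.36 without DMXAA replicate 1, 2 and 3). Matrix genes and proteases were lower in 14 and higher in 5 of 27 tested (median -0.47), with Mmp12, the macrophage elastase, at 30966, 32628 and 32195 against 7097, 7032 and 6600.1 (-2.21, adjusted p = 1.1e-10), Plau, or urokinase, at -1.70, and Tgfbi, a matrix protein, at 2.09. Modulators of WNT, TGF-beta and growth factors were lower in 23 and higher in 6 of 31 tested (median -0.99). Nrp1, a co-receptor of semaphorins and VEGF, read 32614, 34241 and 35441 against 8221, 8226 and 8347 (-2.04, standard error 0.045, adjusted p = 1.5e-10), and Jag1, a Notch ligand, was at -2.23.

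Among 27 tested long noncoding RNAs 11 were higher and 5 lower (median 0.19, or -0.12 at equal library totals). Zfas1, a snoRNA host, read 2014, 1757 and 1685 under DMSO and 13936, 13235 and 12763 under DMXAA (2.87, adjusted p = 3.5e-10), Trp53cor1, or lincRNA-p21, was at 2.05, and Neat1, the scaffold of paraspeckles, fell by 0.58. AW112010, an interferon-linked transcript off the list and chosen after its values were seen, read 204, 237 and 290.1 against 24893, 26048 and 21712 (6.64). Whether reads were counted by strand is not given in the sources used here, so antisense and overlapping genes are uncertain.

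Markers of other cell types moved with these changes. Of 8 monocyte markers 6 were higher and 1 lower, and their summed share of reads went from 0.00255% ± 0.000401 to 0.108% ± 0.0438 (SD, n = 3). Ly6c1, uncertain for its near-identical copy, held 0.0887, 0.0924 and 0.0160% of reads under DMXAA, and the other 7 markers together held 0.0420, 0.0437 and 0.0417%, against 0.00212, 0.00296 and 0.00253% under DMSO. Most of the share of those 7 under DMXAA was Plac8, whose values are given above. Chil3, a marker of marrow monocytes, did not pass the test (107, 119.6 and 117 against 87.7, 132 and 121), and F13a1 fell. Of 7 tested dendritic cell markers 6 were higher and 1 lower, with Xcr1, the receptor of cross-presenting dendritic cells, at 6.74, 5.09 and 4.95 against 393, 412 and 376 (5.91), and a summed share of 0.00209% ± 0.000254 against 0.0200% ± 0.00190. The defining dendritic cell genes Flt3 and Zbtb46 had at most 6 and 8 reads in a library, and Batf3 fell by 1.42. Of neutrophil markers 1 was higher and 3 lower of 7 tested, and the share went from 0.0257% ± 0.000447 to 0.0367% ± 0.00131, nearly all of it Csf3r. B cell markers held 0.0229% ± 0.000652 and 0.0222% ± 0.000710, and T and NK cell markers 0.000183% ± 1.39e-05 and 0.000277% ± 1.4e-05. Of 5 tested endothelial markers 2 were higher and 1 lower, among the higher Kdr, a VEGF receptor, at 489.5, 537 and 507 against 5049, 5253 and 5051 (3.32), while Cdh5 had at most 26 reads and Tek at most 6. Whether other cells had a part in the rise of these markers was not tested, and in bulk libraries a change in the number of such cells cannot be told apart from a change in RNA per cell.

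Many of the strongest increases lay close together in the genome. Of the 299 called genes at least 8-fold higher that have a position (GENCODE vM21, build mm10), 143 (47.8%) had another such gene within 200 kb. Of all 12473 tested genes with a position, 10.5% had one of these genes within that distance. For the 159 genes at least 8-fold lower the shares were 10.1% and 6.76%. The largest group was 10 PYHIN genes on chromosome 1 between 173468485 and 174031810, where 12 genes were tested. A group of 10 lay on chromosome 19 between 11047612 and 11604849 and held MS4A genes and AW112010, and 7 lay further along it between 34473778 and 34650009, 6 of the IFIT family with Ch25h beside them. Guanylate-binding proteins formed groups on chromosome 3 (142493978 to 142638008, 5 such genes and Mir6381) and of 6 on chromosome 5 (105014150 to 105346472), and in both every tested gene of the span was at least 8-fold higher. The same held for 4 chemokine genes, Ccl2, Ccl7, Ccl12 and Ccl8, on chromosome 11 (82035571 to 82116799), for 5 Ly6 genes on chromosome 15 (74955051 to 75111970) and for Cxcl9, Cxcl10, Cxcl11 and Art3 on chromosome 5 (92321347 to 92414628). Art3, an ADP-ribosyltransferase gene that lies among the chemokines, had no read under DMSO and 96.7, 163 and 91.3 normalized counts under DMXAA, and Apof, an apolipoprotein gene within the group of Stat2 on chromosome 10 (128225838 to 128292849), read 131, 154 and 166 against 1609.9, 1507 and 1679 (3.41). Both were chosen after their values were seen, and copies within these families can share reads.

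Whether these responses differed in the KO macrophages was asked of 60 genes, which are members of the STING, receptor or STAT and IRF lists or among the 15 highest and 15 lowest called genes at any level, by the interaction term over 12 libraries (the response in KO minus that in WT). That fit held only genes averaging at least 10 normalized counts under DMSO and also under DMXAA, over both genotypes. Genes nearly silent under either agent in both genotypes, even if strongly switched on, were thus not asked. Over all 12263 genes of that fit 1100 were called (8.97%), 686 with a more positive change in KO and 414 with a more negative one, but 483 and 759 at equal library totals. Irf7 had an interaction of 2.08 (standard error 0.13, adjusted p = 3.7e-07), and Stat2 had 0.45 (adjusted p = 3.0e-04). Both thus had a more positive change in KO. Sting1 had 0.39 (adjusted p = 0.0051), Irf1 -0.30 (adjusted p = 0.0027), the last with a less positive change in KO. Among the genes of largest change, Slfn4 had 1.78, Ms4a4c 1.77 and Iigp1 1.21, and Zfp618, which fell in WT, had 5.92 (adjusted p = 4.8e-05). With no read under DMXAA in WT, Zfp618 passed the filter under DMXAA only through its KO libraries. Tbk1 was not called (0.11).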

How the data were processed

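RNA of WT macrophages under DMSO or DMXAA for 24 h (3 libraries each) was sequenced by the submitters from a strand-specific mRNA kit. Reads were aligned with HISAT2 and counted with featureCounts on mm10, per the submitters' processing notes, and neither their versions nor the strand setting of the counting is given in the sources used here. The authors deposited normalized counts (a signal in which each library's reads are divided by its size factor) and a table of log2 fold changes with adjusted p-values, of which only a count comparison was made: of 7841 genes called in the authors' deposited table, 7636 were called here in the same direction. All values were whole multiples of 1 read within 0.01 (100.0%), and 91440 read counts, each of 1 gene in 1 library, did not differ between tables.

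Groups follow the titles. Genes averaging at least 10 normalized counts were fitted with limma 3.58.1 in R 4.3.3 (lmFit, eBayes with trend) on log2(value + 1), two-sided, with Benjamini-Hochberg adjustment over all 12752 genes and a threshold of 0.05. The fit was tested on simulated data for this comparison with 12752 genes, 100 changed at each fold, and gave back 97% of 2-fold and 99% of 4-fold changes with 13 false calls. The simulation gave every gene the same dispersion and held few changes, balanced in direction, whereas 62.8% of genes were called here. It therefore checks that the fit runs properly and does not measure the error rate of the calls in these data. KO libraries, whose tables were normalized separately, entered the interaction term alone, for genes averaging at least 10 both under DMSO and under DMXAA. Recovered reads were tested with edgeR 4.0.16 (quasi-likelihood) and DESeq2 1.42.0 as alternatives. Other alternatives were the pseudocount, the filter, the scaling, leaving out each library and the replicate number as a block. The RPKM scale used exon lengths of GENCODE vM21, which gave a position for 97.8% of tested genes. Genes were named by rule: all members of the STING, ligand, receptor and STAT and IRF lists, the 5 smallest p, 2 highest, 2 lowest and up to 5 counter-directed members of other lists, the 8 highest and 8 lowest transcription factor, chromatin and noncoding genes, and the 15 highest and 15 lowest called genes averaging 100 or more, with groups apart and no predicted-gene symbol. Some genes that this rule picks are not reported here. The members, lists and rule were chosen with earlier results of these data known.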

Additional observations from a re-analysis of the deposited data

Results flagged for a closer look

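The 15 results below are of genes whose response to DMXAA differed between the genotypes by the interaction term over 12 libraries (KO response minus WT response on the log2 scale, limma, Benjamini-Hochberg over all 12263 genes of that fit, adjusted p below 0.05). The term was looked up for 60 genes, and 13 of the 15 were positive. Genes averaging under 10 normalized counts under DMSO or under DMXAA, over both genotypes, were not in the fit. Among transcription factors it was 2.08 for Irf7 (adjusted p = 3.7e-07), 0.45 for Stat2 (3.0e-04), 0.39 for Irf8 (5.4e-04), 0.33 for Irf9 (0.038) and -0.30 for Irf1 (0.0027). Among signalling genes it was 0.53 for Jak3 (adjusted p = 0.0092), 0.47 for Cgas (0.014), 0.39 for Sting1 (0.0051), 0.37 for Samhd1 (3.3e-04) and -0.30 for Ikbke (0.0094). Among the 15 highest and 15 lowest called genes in WT, at any level, it was 5.92 for Zfp618 (adjusted p = 4.8e-05), 5.34 for Trpm3 (0.025), which is outside the rule for named genes, 1.78 for Slfn4 (0.0044), 1.77 for Ms4a4c (5.3e-04) and 1.21 for Iigp1 (0.017). The Irf9 call was lost at equal library totals (adjusted p = 0.074), at equal upper quartiles (0.06), and without KO DMSO replicate 1 or 2, KO DMXAA replicate 2 or 3, WT DMSO replicate 1 or 2, or any WT DMXAA library (0.054 to 0.097). That of Trpm3 was lost without KO DMSO replicate 1, KO DMXAA replicate 1 or 2, WT DMSO replicate 2 or 3, or WT DMXAA replicate 1 or 3 (adjusted p = 0.051 to 0.066). The labels name 3 libraries a group of each genotype, and no cause of these differences was tested. Groups of 3 libraries are too small for the test of single outlying libraries.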

How the results depend on the processing

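The counts of called genes (limma, adjusted p below 0.05) stayed within 1.5 times of those reported except at equal library totals, when 2047 genes were higher, 7088 lower and 1989 at least 2-fold lower, and 759 had a more negative change in KO. Without each library in turn, 3679 to 4015 genes were higher, 3597 to 3857 lower, 1056 to 1095 at least 2-fold higher and 1265 to 1315 at least 2-fold lower, and the interaction gave 558 to 710 positive and 280 to 415 negative calls. Same-numbered libraries did not deviate together (correlations -0.0358 to 0.0279). This cannot show whether they came from the same mouse or preparation, so a pairing stays unknown. With the title number as a block 3989 genes were higher and 3876 lower, and with the library number as a block 3460 and 3419. The interaction with the block gave 568 and 322 calls.

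Of 264 named genes tested 259 were called, and 251 of these kept direction and call under every alternative run. At equal library totals Tbk1 (-0.0059), Apobec1 (-0.073), Ifitm2 (-0.097), Ifnar2 (-0.15) and Irf3 (-0.18) turned negative. So did the medians of the lists of STING signalling (-0.088), interferon receptors (-0.15), cytokine receptors (-0.063), NF-kappaB (-0.29), lysosome (-0.14), chromatin (-0.099), stress responses (-0.21), heat shock (-0.27), oxidative phosphorylation (-0.17) and noncoding RNAs (-0.12). At equal upper quartiles those of NF-kappaB (-0.094), stress responses (-0.020) and heat shock (-0.074) did. These turns follow the shift of the median of all genes given in the report. The motif shares by response were void also for genes with a mean of at least 50, of which 69 of 106 had a window. Genes with few reads are limited by depth: a floor of 3 reads was 0.0319 to 0.0377 RPM.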

Other observations

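Of 13 tested osteoclast and fusion genes 5 were higher and 4 lower under DMXAA (limma, adjusted p below 0.05 over all tested genes), near the shares of all tested genes (31.7% and 31.1%), and 3 and 8 at equal library totals. Clcn7, a chloride transporter of the lysosome, read 26135, 28008 and 28141 under DMSO and 72516, 73991 and 74327 under DMXAA (1.42 on the log2 scale), and Tcirg1, a subunit of the proton pump, rose by 0.98. Mmp9, a gelatinase, read 52.2, 150.1 and 112 against 35.97, 21.3 and 18.5 (-1.94). In these 3 genes the groups of libraries did not overlap, as for 68.8% of all tested genes. Of 17 tested markers of alternative activation 5 were higher and 8 lower, beside 31.7% and 31.1% of all tested genes. Il4ra, the receptor chain for interleukin 4 and 13, read 6578, 8209.6 and 6599 against 14574, 14952 and 15299 (1.08), and Ccl22, a chemokine of that state, rose by 3.47.

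Of 26 tested autophagy genes 15 were higher and 9 lower, beside 31.7% and 31.1% of all tested genes. At equal library totals 5 were higher and 14 lower. Vmp1, which helps build autophagosomes, rose by 0.82 and Wipi1, which binds their membrane, fell by 1.09. Of 36 genes of ribosome biogenesis 5 were higher and 16 lower. Tcof1, a nucleolar factor, rose by 0.73 and Rrp1b, another nucleolar gene, fell by 1.13.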
